A study of Arabidopsis thaliana with 6 samples.

Results

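GLK1, HY5, HYH and CGA1 are 4 transcription factors that control the greening of Arabidopsis thaliana. They were found by their locus identifiers in the deposited tables, and all 4 were present among the 5330 genes listed there. The tables hold genes that passed the authors' thresholds, 3524 higher and 1806 lower by the epl1a epl1b label, and genes outside them are not analysed here. RNA came from whole seedlings of 2 genotypes in the Columbia-0 background: a line labelled epl1a epl1b, described as a double mutant, and wild type Col-0, with 3 libraries of each from 3 independent experiments. All seeds had been kept at 4 °C for 3 days. All seedlings were 14 days old, had been grown at 22 °C on medium with 1% sucrose in days of 16 h light, at 100 µmol per square metre and second, and 8 h dark, and were collected 8 h after dawn. EPL1A and EPL1B encode the Enhancer of Polycomb subunit of NuA4, a complex that acetylates histone H4, and the series asks how it acts on transcription for chloroplast formation. No source used here states the type of the mutant alleles.

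GLK1 is a GARP-type factor that, with its partner GLK2, switches on genes for chlorophyll synthesis, light-harvesting antennae and photosystems. HY5 and its homolog HYH are bZIP factors that bind ACGT-containing elements and promote seedling development in light. They are degraded in darkness with the help of the ubiquitin ligase COP1. CGA1, also named GATA22, is a GATA factor induced by cytokinin, nitrate and light that promotes chloroplast development and division. All 4 are therefore known as positive regulators of greening, acting on partly shared target genes.

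The upstream sequences of HY5 and HYH are shown because these homologs moved in the same direction and because bZIP factors of their family bind ACGT. Each is the stretch of 250 bases that ends just before the annotated gene start, read 5′ to 3′ along the gene's strand from the RefSeq TAIR10.1 assembly. The gene starts and ends of all 4 regulators are the same in that annotation and in the deposited tables, which use TAIR10. Capitals mark ACGT and the CCAAT box (CCAAT, or ATTGG on the other strand). HY5 lies at chr5:3595074-3595323 on the minus strand and HYH at chr3:6023594-6023843 on the plus strand.
HY5: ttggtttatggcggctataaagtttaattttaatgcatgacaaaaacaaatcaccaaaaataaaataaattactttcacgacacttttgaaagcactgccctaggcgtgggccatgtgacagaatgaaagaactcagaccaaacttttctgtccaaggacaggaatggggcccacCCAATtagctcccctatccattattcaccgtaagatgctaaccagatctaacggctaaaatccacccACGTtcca
HYH: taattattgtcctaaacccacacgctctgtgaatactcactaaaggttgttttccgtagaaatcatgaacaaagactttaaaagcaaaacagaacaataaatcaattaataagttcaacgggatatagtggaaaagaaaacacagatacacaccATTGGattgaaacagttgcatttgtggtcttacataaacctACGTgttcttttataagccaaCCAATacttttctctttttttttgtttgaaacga

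Both windows hold 1 ACGT, starting 8 bases before the HY5 start and 55 bases before the HYH start. The same 4 letters occur in 44.1% of the 27443 windows of this kind upstream of nuclear protein-coding genes. GLK1 has 1 ACGT as well, 145 bases before its start, and the CGA1 window has none. The G-box CACGTG, a longer element built around ACGT, is not in any of the 4 windows and is in 6.49% of all windows. A match of letters is not evidence of binding.

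The labels were first set against the targeted genes. EPL1A had 128, 121 and 124 normalised reads in the libraries labelled as the mutant, against 360.0, 378 and 364 in Col-0. EPL1B, by contrast, had 17037, 16987 and 17145 normalised reads in the libraries labelled as the mutant, against 743, 762 and 654 in Col-0. Because EPL1B goes against its label, these libraries are called epl1ab-labelled, and higher or lower refers to the labels. Reads in listed genes ranged from 7355421 to 8625707 per epl1ab-labelled library and from 9265086 to 10938542 per Col-0 library; these sums are not library depths. Normalised reads are reads divided by a scaling factor for each library, recovered from the authors' fold changes. Marker genes of seed maturation summed to 1200, 206958 and 301278 normalised reads in epl1ab-labelled replicates 1, 2 and 3, against 424, 382 and 46.4 in Col-0 replicates 1, 2 and 3. Of 17 such markers 16 were listed, all higher, where 66.1% of all listed genes were higher. The embryo regulator LEC1, named after its values were seen, was at 0 reads in epl1ab-labelled replicate 1 and in every Col-0 library. LEC2, also named after its values were seen, was instead even across the epl1ab-labelled libraries. It had 15.6, 17.4 and 15.9 normalised reads in epl1ab-labelled replicates 1, 2 and 3, against 2.0, 1.07 and 0 in Col-0 libraries. Transcripts of antenna proteins, which define green tissue, were abundant in every library.

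GLK1 was the regulator that was lower in the epl1ab-labelled libraries. It (AT2G20570, chromosome 2, 8855302 to 8857758, plus strand) had 1882, 1953 and 1900.5 normalised reads in epl1ab-labelled replicates 1, 2 and 3, against 7060, 7112 and 6859 in Col-0 replicates 1, 2 and 3. All epl1ab-labelled libraries lay far below all Col-0 libraries, and replicates within a group were close. The means were 1912 ± 37.0 in epl1ab-labelled and 7010 ± 134 in Col-0 libraries (SD, n = 3 each), so GLK1 was 3.67-fold lower (log2 fold change -1.87 ± 0.06 SE; adjusted p = 9.21e-07 by the quasi-likelihood test of edgeR with Benjamini-Hochberg adjustment). These values rest on 6468 reads in epl1ab-labelled and 19297 reads in Col-0 libraries. In bulk tissue, fewer cells of a type and less RNA per cell cannot be told apart.

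HYH, the homolog of HY5, had the largest change of the 4 regulators with the recovered factors. GLK1 changed more with TMM factors (-2.35, against 1.85 for HYH) and with DESeq2 size factors from the listed genes. HYH (AT3G17609, chromosome 3, 6023844 to 6024710, plus strand) had 678, 708 and 768 normalised reads in epl1ab-labelled replicates 1, 2 and 3, against 147, 111 and 173 in Col-0 replicates 1, 2 and 3. The lowest epl1ab-labelled library was well above the highest Col-0 library. The means were 718 ± 45.9 in epl1ab-labelled and 144 ± 31.4 in Col-0 libraries (SD, n = 3 each), a 5.0-fold rise (log2 fold change 2.32 ± 0.18 SE; adjusted p = 1.28e-05, edgeR).

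HY5 rose less. HY5 (AT5G11260, chromosome 5, 3593335 to 3595073, minus strand) had 760.3, 893 and 912 normalised reads in epl1ab-labelled replicates 1, 2 and 3, against 390.0, 315 and 449 in Col-0 replicates 1, 2 and 3. The groups did not overlap, but Col-0 libraries differed from each other by more, relative to their mean, than for GLK1. The means were 855 ± 82.6 in epl1ab-labelled and 385 ± 67.2 in Col-0 libraries (SD, n = 3 each), a 2.22-fold rise (log2 fold change 1.15 ± 0.15 SE; adjusted p = 0.0002, edgeR). Of the genes listed higher, 88.6% changed more than HY5, 75.0% more than CGA1 and 37.9% more than HYH, and of those listed lower 27.4% changed more than GLK1.

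CGA1 also rose, and its epl1ab-labelled libraries were the least even. CGA1 (AT4G26150, chromosome 4, 13253084 to 13255106, plus strand) had 587, 404 and 571 normalised reads in epl1ab-labelled replicates 1, 2 and 3, against 197, 218 and 182 in Col-0 replicates 1, 2 and 3. Replicate 2 was the low one of the epl1ab-labelled libraries and still lay above every Col-0 library. The means were 521 ± 101 in epl1ab-labelled and 199 ± 18.3 in Col-0 libraries (SD, n = 3 each), a 2.62-fold rise (log2 fold change 1.39 ± 0.17 SE; adjusted p = 0.000147, edgeR).

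The background limits what these calls show. The authors listed 3 of the 4 regulators as higher and 1 as lower, against 66.1% and 33.9% of all listed genes. edgeR called the same directions, but it called 100% of the 4773 genes in the fit, 63.1% higher and 36.9% lower, since the tables had been selected with these libraries. Likewise the groups did not overlap for 98.5% of listed genes. DESeq2 with size factors computed from the listed genes called 1585 genes higher (29.7%) and 1806 lower (33.9%), against 3518 and 1806 for DESeq2 with the recovered factors. edgeR with the recovered factors, after its filter, called 3012 higher and 1761 lower. The DESeq2 size factors computed from the listed genes moved the median log2 fold change of all genes by -1.11. Under them neither HY5 nor CGA1 was called, at 0.04 and 0.28 on the log2 scale (DESeq2 adjusted p = 0.848 and 0.275). GLK1 and HYH were called under every setting with replicates, but their sizes moved, to -2.98 for GLK1 and 1.22 for HYH with DESeq2 size factors from the listed genes. Since that shift was downward, it is no test of the call of GLK1. EdgeR was also run with epl1ab-labelled replicate 1 as the only epl1ab-labelled library, in which the sum of the seed markers was low. It gave log2 fold changes of -1.90 for GLK1, 0.98 for HY5, 2.24 for HYH and 1.56 for CGA1. With 1 library on that side these are given as values without a call.

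**Figure D1:**
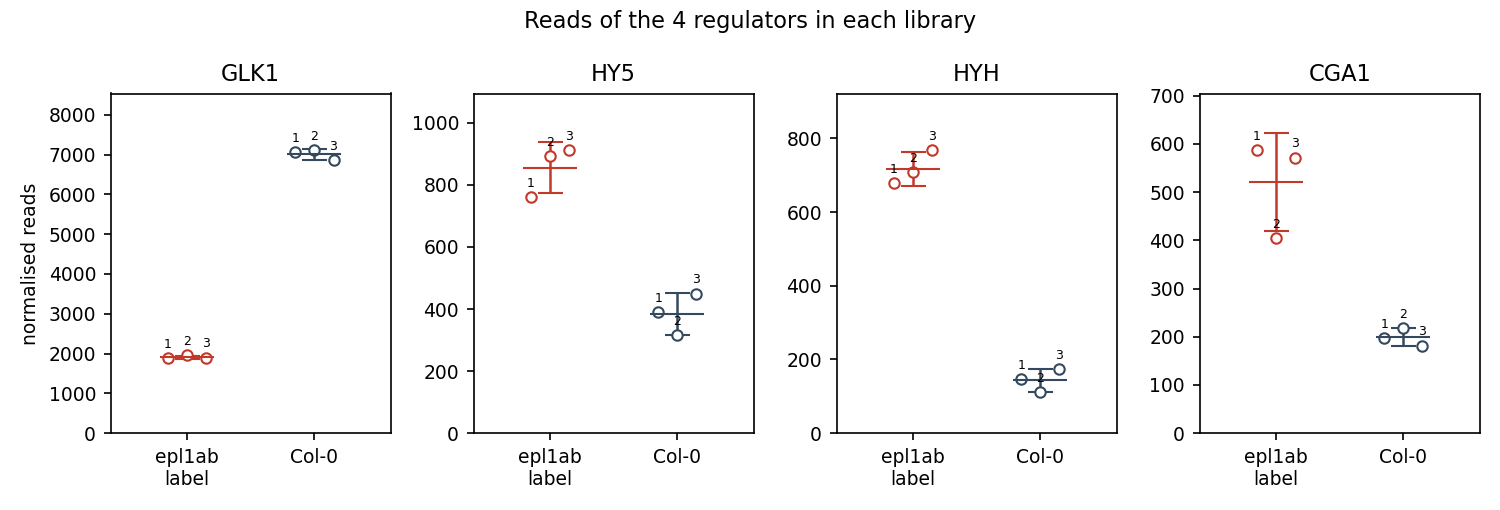
Normalised reads (linear axis from 0) of GLK1, HY5, HYH and CGA1 in 3 epl1ab-labelled and 3 Col-0 libraries; circles are libraries with their replicate number, bars the mean and SD. GLK1 was 3.67-fold lower in the epl1ab-labelled libraries, and HYH was 5.0-fold, CGA1 2.62-fold and HY5 2.22-fold higher with the recovered scaling.

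**Figure D2:**
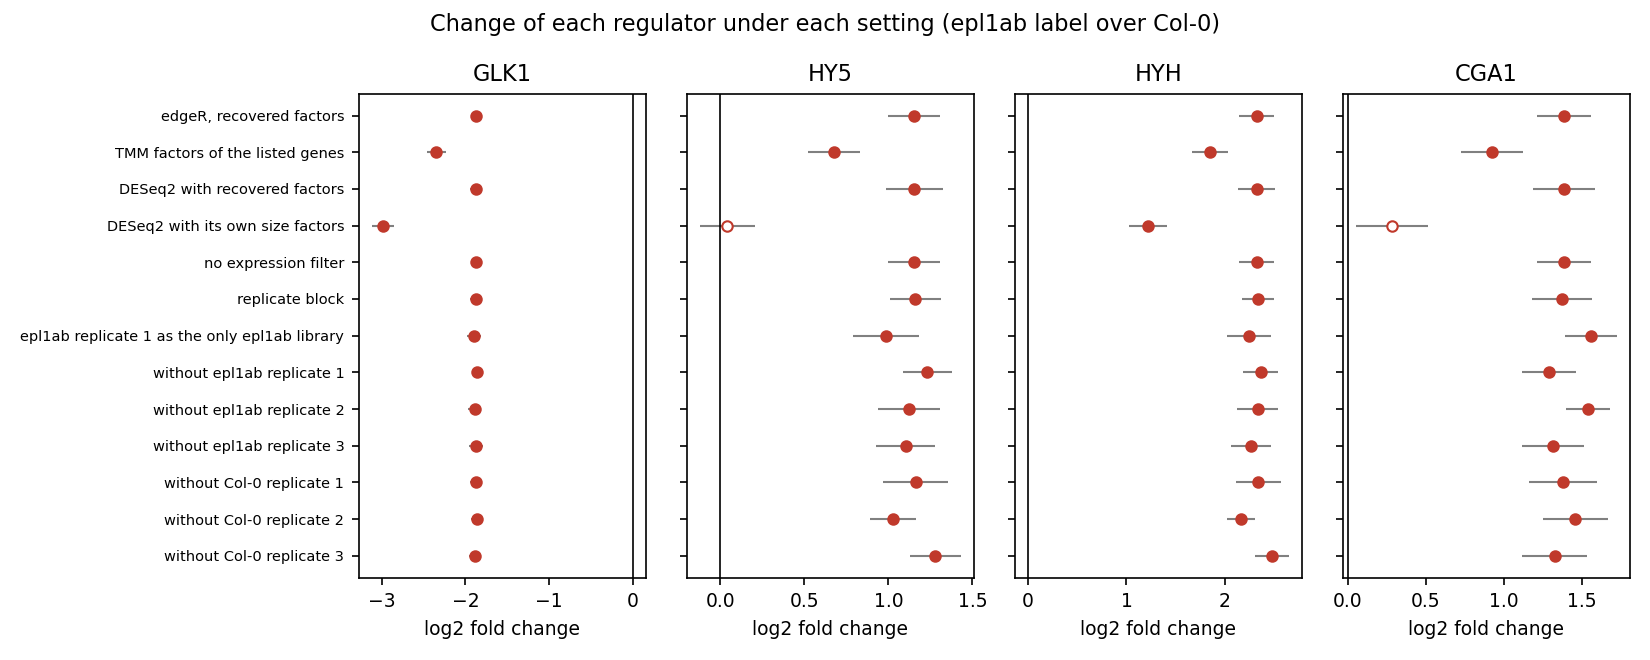
Log2 fold change of each regulator, epl1ab-labelled over Col-0, under 13 settings; points are estimates, bars the SE, and open points have an adjusted p of 0.05 or more. The open points are HY5 at 0.04 and CGA1 at 0.28, both with DESeq2 size factors from the listed genes; the setting with 1 epl1ab-labelled library takes its spread from Col-0.

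Levels can be compared between the regulators only per length, here normalised reads per kilobase of annotated exon. In epl1ab-labelled libraries the order was GLK1 at 1104 ± 21.4, HYH at 926 ± 59.2, HY5 at 681 ± 65.8 and CGA1 at 319 ± 62.2 (SD, n = 3). In Col-0 libraries the order was GLK1 at 4050 ± 77.4, HY5 at 306 ± 53.5, HYH at 185 ± 40.5 and CGA1 at 122 ± 11.2 (SD, n = 3). HY5 and HYH thus changed places between the labels. Neighbours in either order did not overlap in their library values; the closest were CGA1, at most 134, and HYH, at least 143, in Col-0 libraries.

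Ratios between 2 regulators in the same library do not depend on library scaling. HY5 had 1.12, 1.26 and 1.19 reads per HYH read in epl1ab-labelled replicates 1, 2 and 3, against 2.65, 2.84 and 2.59 in Col-0 replicates 1, 2 and 3. All epl1ab-labelled ratios lay below all Col-0 ratios, and the log2 ratio of HY5 to HYH changed by -1.18 (exact permutation test, two-sided, p = 0.1, which is the smallest that 3 against 3 libraries allow). GLK1 had 2.78, 2.76 and 2.47 reads per HYH read in epl1ab-labelled libraries, against 48.0, 64.2 and 39.6 in Col-0 libraries, a change of -4.22 on the log2 scale (exact p = 0.1). Against HY5 the log2 ratio of GLK1 changed by -3.04, and against CGA1 by -3.25 (exact p = 0.1 for each). GLK1 was listed lower and the other regulators higher, so selection on these libraries set the direction of its ratios in advance. Their separation is therefore no independent support.

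HYH also gained on CGA1, with a change in their log2 ratio of 0.97 (exact p = 0.1). No separation was seen between HY5 and CGA1: their log2 ratio was 0.73 ± 0.39 in epl1ab-labelled and 0.94 ± 0.39 in Col-0 libraries (SD, n = 3 each), a change of -0.21 (exact permutation p = 0.6), and the groups overlapped. Over the 6 pairs the Benjamini-Hochberg adjusted p was 0.12 for the 5 pairs that separated and 0.6 for HY5 and CGA1, so none of them passed 0.05 in a design that could not reach it. Each of the 5 pairs kept its direction when any library was left out. For the pairs with GLK1 that direction had been set by the selection of listed genes.

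**Figure D3:**
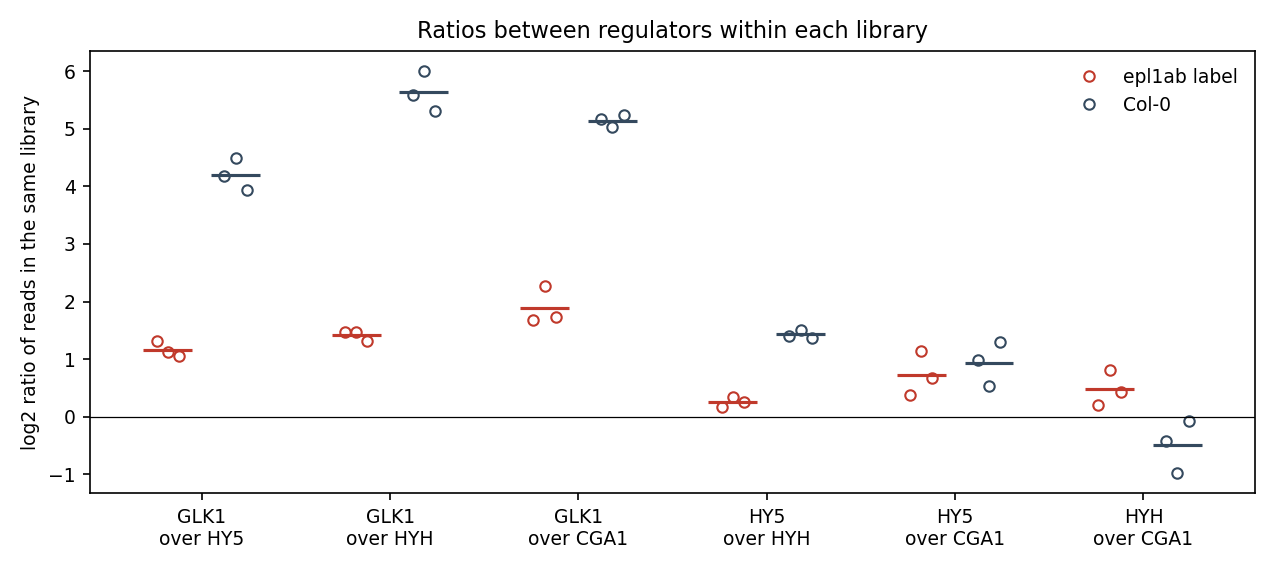
Log2 ratio of the reads of 2 regulators in the same library, for 6 pairs; circles are libraries and lines group means, epl1ab-labelled on the left of each pair and Col-0 on the right. The log2 ratio of GLK1 to each of the other regulators changed by -3.04 to -4.22, and only the HY5 over CGA1 ratios of the labels overlap. The direction of the GLK1 ratios was set by selection, since GLK1 was listed lower and the others higher.

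Reads of the 4 regulators could be assigned without ambiguity as far as the reference shows. None of the runs of 50 bases in their exons, 677 for HYH to 1485 for CGA1, occurred elsewhere in the genome, and no annotated gene overlapped any of them. The close relatives of these factors, GLK2, GNC and 4 smaller GATA factors, were not analysed here.

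Genes known as GLK targets were on the lower side with GLK1. The authors listed 39 of 57 as lower and 0 as higher, and edgeR called all 39 lower. Of all listed genes 33.9% were lower. The median log2 fold change of the 39 was -1.44, and that of all genes listed lower was also -1.44. These genes are also controlled by other factors, and their decline is not a measure of GLK1 activity.

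Of 14 chlorophyll synthesis genes 8 were listed lower, with a median log2 fold change of -1.89. PORC, a light-dependent protochlorophyllide reductase, had 1113, 859 and 791 normalised reads in epl1ab-labelled libraries, against 9683, 10591 and 9518 in Col-0 libraries. It fell by 3.43 ± 0.14 on the log2 scale (SE, adjusted p = 1.31e-06 by edgeR), the largest change among the 39 listed GLK targets. PORA, a reductase of the same reaction that is active in young dark-grown tissue, fell by 2.56 on the log2 scale from fewer reads (edgeR adjusted p = 0.000282). CHLG, the chlorophyll synthase and named after its values were seen, fell by 2.00 on the log2 scale. HEMA1, GUN4, CHLH, CRD1, CAO and CHLP, often used as GLK targets, were not analysed here.

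Of 20 antenna genes 13 were listed lower, with a median log2 fold change of -1.45, and of 23 photosystem subunits 18 were, with a median of -1.32. LHCA6, which links photosystem I to the NDH complex, fell by 3.32 ± 0.22 on the log2 scale (SE; adjusted p = 6.98e-06, edgeR), to 550, 372 and 297 normalised reads in epl1ab-labelled libraries, against 3947, 4209 and 4001 in Col-0 libraries. LHCB1.4, a trimer-forming antenna protein, fell by 2.40, but 13.7% of its exonic runs of 50 bases occur elsewhere in the genome, so its own value is uncertain. PSBQA, of the oxygen-evolving complex, fell by 1.77, and PSBTN, a small protein of photosystem II, fell by 1.70. The 13 antenna genes summed to between 746900 and 888498 normalised reads in epl1ab-labelled libraries and between 1911369 and 2181187 in Col-0 libraries, with no overlap.

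Upstream windows of these genes are shown for an element linked to GLK target promoters, CCAATC, read on both strands, with the element in capitals and 12 bases on each side. It is in 7 of the 39 windows of listed GLK targets (17.9%), in 11.8% of the windows of genes listed lower and in 10.2% of all windows, and it contains the CCAAT box. It is also in 3 of the 17 windows of listed HY5 targets (17.65%), so its share does not set the GLK targets apart from them. The G-box CACGTG is likewise in 7 of the 39 GLK target windows (17.95%). The sites shown lie at chr1:10477782-10477811 on the plus strand, chr5:208819-208848 on the plus strand and chr4:13725512-13725541 on the plus strand.
LHCB1.3: gtgggtgtttcgCCAATCcatgaaacgcac
LHCB4.1: aaattatttgacCCAATCagattgtacctc
PORB: cctctgtggggaCCAATCttcctttgtccg

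These 3 genes were chosen for display after their values were seen. LHCB1.3, an abundant antenna protein of which 17.0% of the exonic runs of 50 bases occur elsewhere, fell by 1.31, an uncertain value. LHCB4.1, a minor antenna protein, fell by 1.46, and PORB, the main reductase of green seedlings, by 1.48 on the log2 scale (edgeR). The windows of PORB and LHCB4.1 each hold 2 such sites, and the one nearest the gene start is shown, 22 bases before it for PORB and 35 for LHCB4.1. The site of LHCB1.3 starts 91 bases before the gene start.

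Genes known as HY5 targets were on the higher side with HY5 and HYH. The authors listed 17 of 37 as higher and 0 as lower, where 66.1% of all listed genes were higher. Each gene was placed in a single list, so a target shared by GLK1 and HY5 was counted in a single class. The split between GLK and HY5 targets depends on that assignment. edgeR called all 17 higher, with a median log2 fold change of 2.25, against 1.76 for all genes listed higher. With DESeq2 size factors from the listed genes, 6 flavonoid genes and 7 genes of light and UV-B responses were still called, and DFR (-0.09), GA2OX2 (-0.03), LDOX (0.48) and NRT2.1 (0.46) were not. The class was uneven: listed genes were 8 of 13 in flavonoid synthesis, 7 of 10 in light and UV-B responses, 1 of 11 in nitrate, sulfate and sugar transport, and 1 of 3 in auxin and gibberellin pathways.

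In light and UV-B responses the median log2 fold change was 2.49, and edgeR or DESeq2 called all 7 higher under every setting with replicates. ELIP2, an early light-induced protein of the thylakoid, had 268, 256 and 295 normalised reads in epl1ab-labelled libraries, against 27.0, 1.07 and 18.3 in Col-0 libraries. It rose by 4.12 ± 0.60 on the log2 scale (SE, adjusted p = 0.000316 by edgeR), on few Col-0 reads, and by 4.84 without Col-0 replicate 1. CCA1, a morning factor of the circadian clock, had 927, 751 and 865 normalised reads in epl1ab-labelled libraries, against 73.0, 62.3 and 50.0 in Col-0 libraries (log2 fold change 3.77 ± 0.18 SE; adjusted p = 1.92e-06, edgeR).

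The other 5 genes of this list were named after their values were seen. RUP1 and RUP2, repressors of the UV-B receptor, rose by 2.49 and 2.25 on the log2 scale, and ELIP1 rose by 2.62. RUP2 was very even, at 526, 521 and 525 normalised reads in epl1ab-labelled libraries and 113, 112 and 106 in Col-0 libraries. SIG5, a light-responsive plastid sigma factor, rose by 2.35. ABI5, a bZIP factor of seed germination whose promoter HY5 binds, rose by 2.28. It had 609, 856 and 957 normalised reads in epl1ab-labelled replicates 1, 2 and 3. In these the sum of the seed maturation markers was low, high and high. The part of these markers in the rise of ABI5 was not tested.

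In flavonoid synthesis the median log2 fold change was 1.84. MYB12, which activates flavonol synthesis, had 333, 530.2 and 554 normalised reads in epl1ab-labelled libraries, against 94.0, 80.6 and 110 in Col-0 libraries (log2 fold change 2.32 ± 0.23 SE; adjusted p = 4.86e-05, edgeR). MYB90, an activator of anthocyanin genes, had 87 reads over epl1ab-labelled and 2 reads over Col-0 libraries, which is 35.3-fold after scaling. The 95% exact binomial interval of that ratio is 9.49 to 296 and covers counting error only. Its edgeR log2 fold change was 4.92, and 7.78 without Col-0 replicate 3, which held both Col-0 reads. CHS, the first enzyme of the pathway and named after its values were seen, had 5173, 7824 and 8874 normalised reads in epl1ab-labelled libraries, against 2083, 1461 and 2111 in Col-0 libraries. Epl1ab-labelled replicate 1 was the lowest of its group for CHS and MYB12, as it was for HY5 and HYH, and also for the seed maturation markers. With that replicate as the only epl1ab-labelled library, the log2 fold change was 1.46 for CHS and 1.81 for MYB12, given as values without a call. DFR, an enzyme of anthocyanin synthesis named after its values were seen, had a log2 fold change of 1.04 (edgeR adjusted p = 0.0271) and was not called without Col-0 replicate 1, Col-0 replicate 3 or epl1ab-labelled replicate 3 (adjusted p = 0.0681, 0.069 and 0.0984).

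In the other HY5 classes a single gene was listed in each. NRT2.1, a high-affinity nitrate transporter, had 132, 149 and 87.9 normalised reads in epl1ab-labelled libraries, against 93.0, 15.05 and 17.1 in Col-0 libraries, so the groups overlapped. It rose by 1.53 ± 0.65 on the log2 scale (SE, adjusted p = 0.0496 by edgeR), and it was 2.93 without Col-0 replicate 1. It was not called when any 1 of the other 5 libraries was left out, at 1.14 to 1.73 (edgeR adjusted p = 0.0526 to 0.161). GA2OX2, which inactivates gibberellin, rose by 1.08 (edgeR adjusted p = 0.00116) with the recovered factors and was at -0.03 with DESeq2 size factors from the listed genes.

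The G-box CACGTG, which HY5 can bind, was in 8 of the 17 windows of listed HY5 targets (47.1%), against 6.49% of all windows and 8.26% of the windows of genes listed higher. The target list was drawn from knowledge of HY5 binding, so this share is not independent of it. Windows with the element in capitals and 12 bases on each side are shown for CHS at chr5:4488231-4488260 on the plus strand, MYB12 at chr2:19476196-19476225 on the plus strand, ELIP1 at chr3:8085718-8085747 on the minus strand and CCA1 at chr2:19245386-19245415 on the plus strand.
CHS: gagttaagtatgCACGTGtaagaactggga
MYB12: tcttacaccacaCACGTGtcatcatctcct
ELIP1: tactatatgattCACGTGtaatgtttttga
CCA1: tagtgtatcagaCACGTGtcgacaaactgg

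Of 15 genes for chloroplast division and ammonium assimilation that are linked to CGA1 and its relative GNC, 2 were listed, both lower, where 33.9% of all listed genes were lower. The other 13 were not analysed here. FTSZ2-2, a tubulin-like protein of the plastid division ring, had 1509, 1240 and 1180 normalised reads in epl1ab-labelled libraries, against 3313, 3254 and 2957 in Col-0 libraries (log2 fold change -1.28 ± 0.11 SE; adjusted p = 2.05e-05, edgeR). ARC5, the dynamin that constricts the plastid from outside, fell by 1.24 ± 0.07 (SE; adjusted p = 2.89e-06, edgeR).

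**Figure D4:**
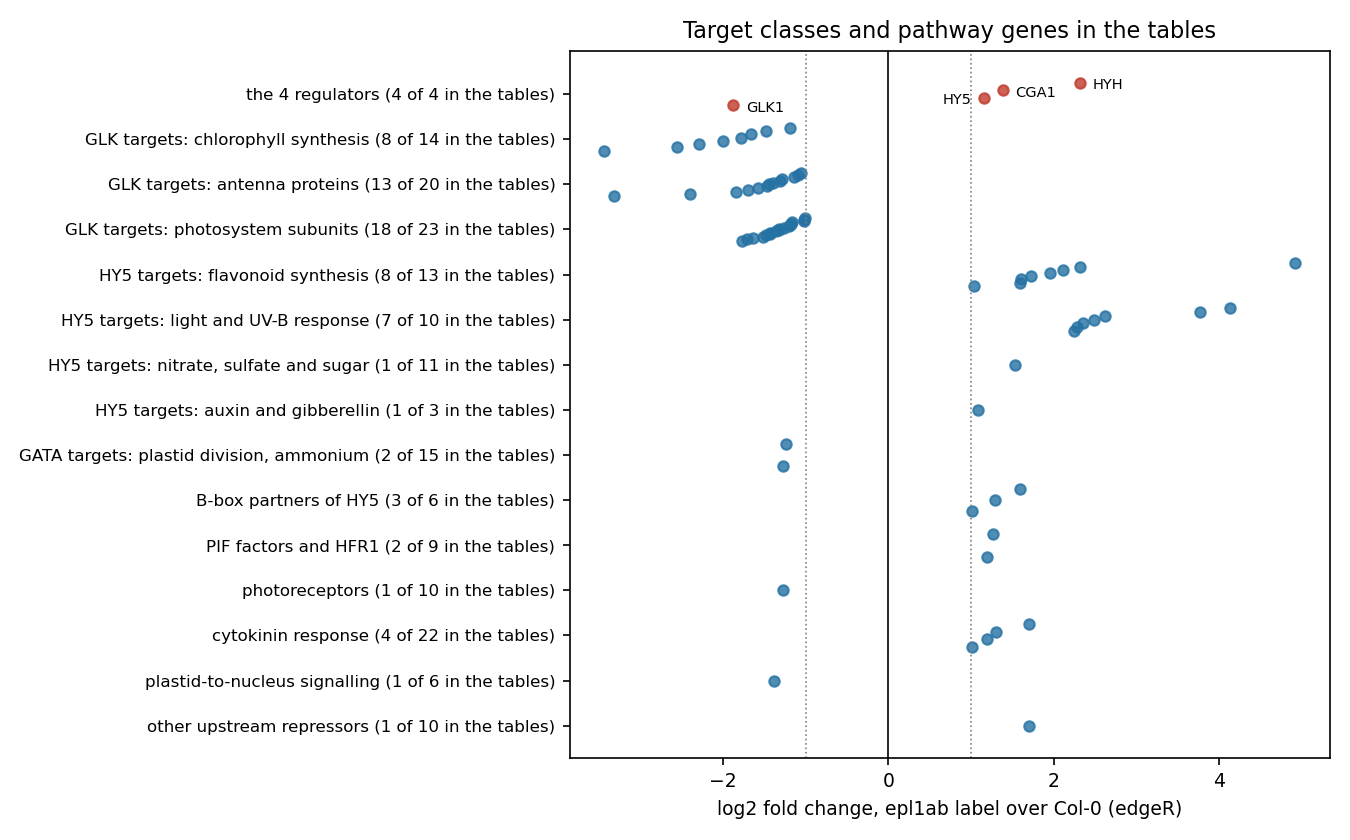
Log2 fold change (edgeR, epl1ab-labelled over Col-0) of every gene in the fit for the regulators, their target classes and related pathways; each point is a gene and dotted lines mark the authors' threshold of 1. All 39 GLK targets lie below -1 and all 17 HY5 targets above 1, with each gene placed in a single class also where targets are shared. With DESeq2 size factors from the listed genes DFR, GA2OX2, BBX24 and CKX4 were at -0.11 to -0.03.

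Partners and upstream regulators of HY5 were mostly not analysed here. Of the B-box proteins, photoreceptors, PIF factors and HFR1 below, 5 were listed higher and PHYC lower, where 66.1% of all listed genes were higher. Of 6 B-box proteins that act with HY5, 3 were listed, all higher: BBX20, a coactivator, and BBX24 and BBX25, which oppose HY5. BBX25 rose by 1.59 ± 0.13 (SE; adjusted p = 1.45e-05, edgeR), BBX20 by 1.29 ± 0.18 and BBX24 by 1.01 ± 0.08 on the log2 scale. With DESeq2 size factors from the listed genes BBX25 was still called, and BBX20 (0.18), BBX24 (-0.10), HFR1 (0.16) and PIF8 (0.09) were not. PHYC, a phytochrome and the 1 listed of 10 photoreceptors, fell by 1.27 ± 0.09 (SE; adjusted p = 7.35e-06, edgeR).

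Of 9 PIF factors and HFR1, 2 were listed higher. PIF factors are repressed by light and hold back greening genes, and HFR1 is an atypical bHLH factor that inhibits them. HFR1 rose by 1.27 ± 0.12 and PIF8 by 1.19 ± 0.11 on the log2 scale (SE, edgeR adjusted p = 4.09e-05 for HFR1 and 2.85e-05 for PIF8). Members of the COP1, SPA and DET1 list, 9 genes that remove HY5 in darkness, were not analysed here.

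Cytokinin induces CGA1, and 4 of 22 genes of cytokinin signalling and response were listed, all higher, where 66.1% of all listed genes were higher. With DESeq2 size factors from the listed genes none of the 4 was called, with ARR3 at 0.59, ARR9 at 0.19, ARR5 at 0.06 and CKX4 at -0.11 (DESeq2 adjusted p = 0.27, 0.254, 0.762 and 0.632). The type-A response regulators ARR3, ARR9 and ARR5, which cytokinin induces, rose by 1.70 ± 0.28, 1.305 ± 0.08 and 1.19 ± 0.13 on the log2 scale (SE, edgeR). ARR9 had 1671, 1649 and 1740 normalised reads in epl1ab-labelled libraries, against 718, 688 and 642 in Col-0 libraries. CKX4, which degrades cytokinin, rose by 1.01 ± 0.18 (SE; adjusted p = 0.000956, edgeR).

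In 2 further lists a single gene was listed. FC2, the ferrochelatase of green tissue and 1 of 6 genes of plastid-to-nucleus signalling, fell by 1.38 ± 0.12 (SE; adjusted p = 2.63e-05, edgeR). RGL3, a DELLA protein, was the 1 listed of 10 genes in a list named other upstream repressors. The name is only a label of the list, and whether RGL3 represses any of the regulators was not tested. RGL3 rose by 1.70 ± 0.26 (SE; adjusted p = 0.000416, edgeR). It had 293, 504 and 580.5 normalised reads in epl1ab-labelled replicates 1, 2 and 3, against 124, 148 and 151 in Col-0 libraries. Epl1ab-labelled replicate 1 was again the lowest of its group.

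Of 10 root markers 3 were listed, all higher, where 66.1% of all listed genes were higher: PIN2, an auxin exporter of the root tip, RHD6, a root hair factor, and PLT1, a root meristem factor. Summed over these 3, epl1ab-labelled libraries had 427, 609 and 548 normalised reads and Col-0 libraries 245, 146 and 227. PIN2 rose by 1.36 ± 0.22, RHD6 by 1.296 ± 0.38 and PLT1 by 1.29 ± 0.45 on the log2 scale (SE, edgeR adjusted p = 0.00054, 0.0109 and 0.0244). None of the 3 was called with DESeq2 size factors from the listed genes, where PIN2 was at 0.25 (DESeq2 adjusted p = 0.306). Neither RHD6 nor PLT1 was called with TMM factors, and PLT1 was not called without Col-0 replicate 1 or epl1ab-labelled replicate 2 (edgeR adjusted p = 0.0564 and 0.0795). Their part in the changes of the 4 regulators was not tested.

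For each regulator the 3 listed genes with the most similar pattern were found, by the smallest root mean square difference of centred log2 levels over 6 libraries, among 3698 other genes with a mean of at least 50 normalised reads. For GLK1 they were EMB2654 (0.03 log2 units), HEMC (0.05), which makes a tetrapyrrole on the way to chlorophyll, and AT1G26208 (0.05), annotated as a non-coding RNA. HEMC had 6968, 6934 and 6407 normalised reads in epl1ab-labelled libraries, against 24955, 24739 and 23011 in Col-0 libraries. For HY5 they were AT3G05320, described as a glycosyltransferase (0.04), AT1G14390, a probable receptor kinase (0.05), and WRKY47 (0.05).

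For HYH the most similar were SAG21, a senescence-associated gene (0.06), AT5G06740, a lectin-type receptor kinase (0.10), and TIC20-IV, of the plastid protein import channel (0.10). SAG21 had 28859, 29609 and 32307 normalised reads in epl1ab-labelled libraries, against 6077, 5055 and 6953 in Col-0 libraries. Like HYH, SAG21 had its lowest Col-0 value in replicate 2, which follows from its choice by pattern. For CGA1 they were AT1G65250, a probable inactive receptor kinase (0.07), AT3G56290, described as a potassium transporter (0.09), and AT1G24210, with no described function (0.12). AT1G65250 had 199, 138 and 199 normalised reads in epl1ab-labelled libraries, against 76.0, 75.2 and 68.3 in Col-0 libraries. Its low value in epl1ab-labelled replicate 2, like that of CGA1, also follows from the choice by pattern.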

How the data were processed

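The authors deposited raw read counts per gene and library, p-values with false discovery rates, and log2 fold changes, per the file headers. Their sign runs as mutant over wild type, checked on the reads. Listed genes all lie 1 or more from 0 on the log2 scale, with false discovery rates below 0.05. Per the labels' protocols, ribosomal RNA was depleted and a stranded kit used and sequenced as single-end reads of 50 bases. The submitters' processing notes name TAIR10 and DESeq2. For aligner, counter and strand setting, no statement was found in the sources used here.

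Because the tables hold selected genes, library scaling was recovered from the authors' log2 fold changes, by least squares over the 1774 genes that reached 200 reads in all 6 libraries (median absolute residual 0.00029). Factors were 1.04 to 1.19 for epl1ab-labelled and 0.819 to 1.0 for Col-0 libraries. For 15 rows the locus was reassigned by start and end. The quasi-likelihood test of edgeR 4.0.16, in R 4.3.3 with limma 3.58.1, was run on the counts of 4773 genes that passed the edgeR filter, with Benjamini-Hochberg adjustment and no replicate block; 557 genes were left out. Each SE was taken from the fold change and its F statistic. The fit was also run on simulated counts, with known factors, even spread and mostly unchanged genes. These settings differ from the selected genes here, so that run does not cover the effect of selection. DESeq2 1.42.0, TMM factors, no filter, the block and leaving out each library were alternatives. Fold changes and p-values describe genes already selected on these libraries, and the spread between 3 libraries. Exact permutation tests used 20 regroupings of libraries, scipy 1.17.1. The 4 regulators and 19 gene lists were chosen with earlier results of these data known, so their directions are not independent support. Named genes were all genes of lists with at most 4 listed, for longer lists the 2 that changed most in the direction of most members and 1 in the other, and 3 pattern neighbours per regulator.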

Additional observations from a re-analysis of the deposited data

How the results depend on the processing

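The choice of library scaling decided many calls of higher genes. Calls of lower genes by DESeq2 stayed at 1806, which is every gene listed lower, with the recovered factors and with its own size factors. The latter moved fold changes downward, so this count is no test of stability. TMM factors of the listed genes shifted the median log2 fold change by -0.47 and DESeq2 size factors by -1.11, by construction, since most listed genes were higher. With DESeq2 size factors from the listed genes, 1585 listed genes were called higher, against 3518 by DESeq2 with the recovered factors and 3012 by edgeR after its filter. Of the regulators 1 was called higher, HYH. HY5 was then at 0.043 and CGA1 at 0.28 on the log2 scale. Under the same setting 0 genes were called higher in the lists of nitrate, sulfate and sugar targets, auxin and gibberellin targets, PIF factors, cytokinin signalling and response, and root markers. In the list of B-box partners 1 gene was. GA2OX2 turned to -0.035, BBX24 to -0.10, CKX4 to -0.11 and WRKY47 to -0.030. With TMM factors 1 root marker and 0 genes of the nitrate, sulfate and sugar list were called. NRT2.1, the listed gene of that class, was also not called without an expression filter (0 genes), and leaving out single replicates gave 0 to 1 genes.

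An alternative chosen after seeing the data kept epl1ab-labelled replicate 1 as the only epl1ab-labelled library. With it the log2 fold change was 1.62 for NRT2.1, 1.04 for PIN2, 1.06 for RHD6 and 1.29 for PLT1, given as values without a call. That fit takes its spread from the Col-0 libraries and assumes that the lone library varies like them, so its calls are no test of stability. Leaving out single replicates gave log2 fold changes of -1.89 to -1.86 for GLK1, 1.03 to 1.28 for HY5, 2.16 to 2.48 for HYH and 1.29 to 1.54 for CGA1, all called. The log2 ratio of HY5 to CGA1 changed by -0.42 to -0.03.

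Same-numbered libraries did not deviate together: the correlations of their deviations were -0.37, -0.00 and -0.30 for numbers 1, 2 and 3 over 3446 genes. Some differently numbered libraries had positive correlations. Deviations were taken from the mean of each group and cancel within it, so positive and negative values entail each other. The positive values are therefore no separate observation. Col-0 replicate 1 had 0.36 with epl1ab-labelled replicate 2 and 0.33 with replicate 3. Col-0 replicate 3 had 0.33 with epl1ab-labelled replicate 1. The remaining pairs were at -0.02, -0.30 and 0.03. Whether libraries with different numbers share an experiment was not tested. With the replicate number as a replicate block, edgeR called 2992 genes higher and 1758 lower, and all 4 regulators as before, with HY5 at 1.16 and CGA1 at 1.37. DFR and PLT1 were not called under the block (edgeR adjusted p = 0.0678 and 0.0577). Depth limits genes with few reads in Col-0 libraries. Among them are MYB90 with 2 reads over these libraries, PLT1 with 27, ARR3 with 38, RHD6 with 40 and ELIP2 with 43.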
